A study of Mus musculus with 8 samples.

Results

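The miR-29 family was measured in liver RNA of MCD-fed mice treated with metformin and of MCD-fed mice without metformin. Its members were taken by probe name: mmu-miR-29a, mmu-miR-29b and mmu-miR-29c (the prefix stands for mouse and is left out from here on), and the probes of their opposite arms, which the array names with an asterisk. There were 7 such probes among the 1135 miRNA probes of the array, 3 for the guide strands and 4 for the star arms (miR-29a*, miR-29b-1*, miR-29b-2* and miR-29c*), and all 7 were among the 1070 probes tested. The MCD + metformin group (4 arrays) was fed a diet deficient in methionine and choline (MCD) for 15 weeks and drank water with metformin (2.4 mg/day) throughout, and the MCD group (4 arrays) was fed that diet equally long without metformin. All were male C57BL/6N mice, 8 weeks old at the start. The MCD diet causes fat storage, inflammation and fibrosis of the liver, without the obesity and insulin resistance of the human disease, which limits it as a model, and metformin is an oral biguanide that lowers glucose production in the liver. Each array held the RNA of 1 liver, and normally fed mice are not analysed here.

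MicroRNAs of the miR-29 family repress messenger RNAs of the extracellular matrix, among them those of type I and type III collagen, fibrillin and elastin. In the liver they are found in hepatocytes as well as in stellate cells, the cells that lay down collagen in fibrosis, and transforming growth factor β is known to lower them in stellate cells. Messenger RNAs were not measured on these arrays, so no collagen level stands beside the miRNA values.

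The guide strands are shown because the family is defined by them and because their near identity bears on how far the 3 probes can be separated. The sequences are those of RefSeq (GRCm38.p6), for which all 7 probes had an entry, and capitals mark the seed, bases 2 to 8, which pairs with the target.
miR-29a: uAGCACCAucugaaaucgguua
miR-29b: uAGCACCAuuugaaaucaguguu
miR-29c: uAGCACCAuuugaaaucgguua
The seed AGCACCA was shared by all 3 guides and by no other of the 1679 mature mouse miRNAs in the RefSeq table. Counted from the 5′ end, miR-29c differed from miR-29a at 1 base (C10U). miR-29b differed from miR-29a at 4 bases (C10U, G18A, U21G and A22U) and was 1 base longer. Cross-hybridisation between the probes of such similar strands was not tested.

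The family lies in a pair of clusters. On mouse chromosome 6, minus strand, the guide of Mir29a lies at chr6:31062673-31062694 and that of Mir29b-1 at chr6:31063025-31063047, with starts 352 bases apart. On chromosome 1, plus strand, the guide of Mir29b-2 lies at chr1:195037091-195037113 and that of Mir29c at chr1:195037600-195037621, with starts 509 bases apart. Both miR-29b genes give the same guide, so the miR-29b probe reads both clusters together, whereas miR-29a and miR-29c, and the star arms of the miR-29b genes, each belong to 1 cluster.

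The star arms were printed on the array as separate probes, and their sequences are given because they share neither the seed of the guides nor a seed among themselves.
miR-29a*: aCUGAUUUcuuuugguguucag
miR-29b-1*: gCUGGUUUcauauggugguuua
miR-29b-2*: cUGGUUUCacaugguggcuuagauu
miR-29c*: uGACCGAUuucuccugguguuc

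Signals are the median intensities of the spots, before background correction, and depend on the probe as well as on the amount of RNA, so that levels are compared between groups and not between probes. From 198 to 284 miRNA probes per metformin array and from 208 to 255 per MCD array exceeded the negative control spots (mean + 2 SD of the 24 spots), and 158 did so on all 8 arrays. The liver miRNA miR-122 had signals of 20702 to 27623 with metformin and of 17416 to 19934 in MCD-fed mice. Around the spots, the local background had a median of 139 ± 3.30 with metformin and 159 ± 2.94 without it (SD, n = 4 each). The first spot lay at a vertical image coordinate of 35240 to 35270 on the metformin arrays and of 3680 to 3690 on the MCD arrays, so treatment and the position of an array cannot be told apart.

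All 3 guides were clearly measured and had higher means in MCD-fed mice treated with metformin. After background correction and scaling the change was 1.18- to 1.29-fold, but none of the 3 guides reached the 0.05 threshold of limma after adjustment. In each of them the groups overlapped. The 4 star arms lay at the level of the negative control spots.

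miR-29a had signals of 5641, 5001, 3837 and 4477 in metformin replicates 1 to 4, against 4757, 3692, 5065 and 3449 in MCD replicates 1 to 4. The means were 4739 ± 767 with metformin and 4241 ± 790 without it (SD, n = 4 each). The ranges overlapped, at 3837 to 5641 with metformin and 3449 to 5065 without it, with the highest signal on metformin replicate 1 and the lowest on MCD replicate 4. After background correction and scaling, the log2 fold change of miR-29a was 0.24 (standard error 0.13, 95% interval -0.03 to 0.52), with an adjusted p of 0.605 from limma. Its normalized values lay above every MCD value on 2 of the 4 metformin arrays (exact permutation test, two-sided, p = 0.171).

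miR-29b, the guide with a source in both clusters, had signals of 3708, 3448, 2881 and 2378 in metformin replicates 1 to 4, against 3137, 2355, 2755 and 2311 in MCD replicates 1 to 4. The means were 3104 ± 594 with metformin and 2640 ± 387 without it (SD, n = 4 each). Metformin replicate 4 was the exception among the treated livers, since its signal lay close to the lowest MCD signals. The log2 fold change of miR-29b was 0.31 (standard error 0.14, 95% interval 0.02 to 0.60), with an unadjusted p of 0.0392 and an adjusted p of 0.466 from limma. Its normalized values exceeded all MCD values on 3 of the 4 metformin arrays (exact permutation test, two-sided, p = 0.0857).

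miR-29c, which comes from the chromosome 1 cluster alone, had signals of 1551, 1653, 1205 and 1072 in metformin replicates 1 to 4, against 1264, 1024, 1294 and 939 in MCD replicates 1 to 4. The means were 1370 ± 276 with metformin and 1130 ± 176 without it (SD, n = 4 each). Here too metformin replicates 1 and 2 were the highest arrays, and metformin replicates 3 and 4 lay among the MCD signals. miR-29c had the largest log2 fold change of the 7 probes, 0.37 (standard error 0.15, 95% interval 0.06 to 0.69), with an unadjusted p of 0.0239 and an adjusted p of 0.425 from limma. Its normalized values exceeded all MCD values on 3 of the 4 metformin arrays (exact permutation test, two-sided, p = 0.114). In bulk liver, fewer cells of a type and less RNA per cell cannot be told apart.

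**Figure D1:**
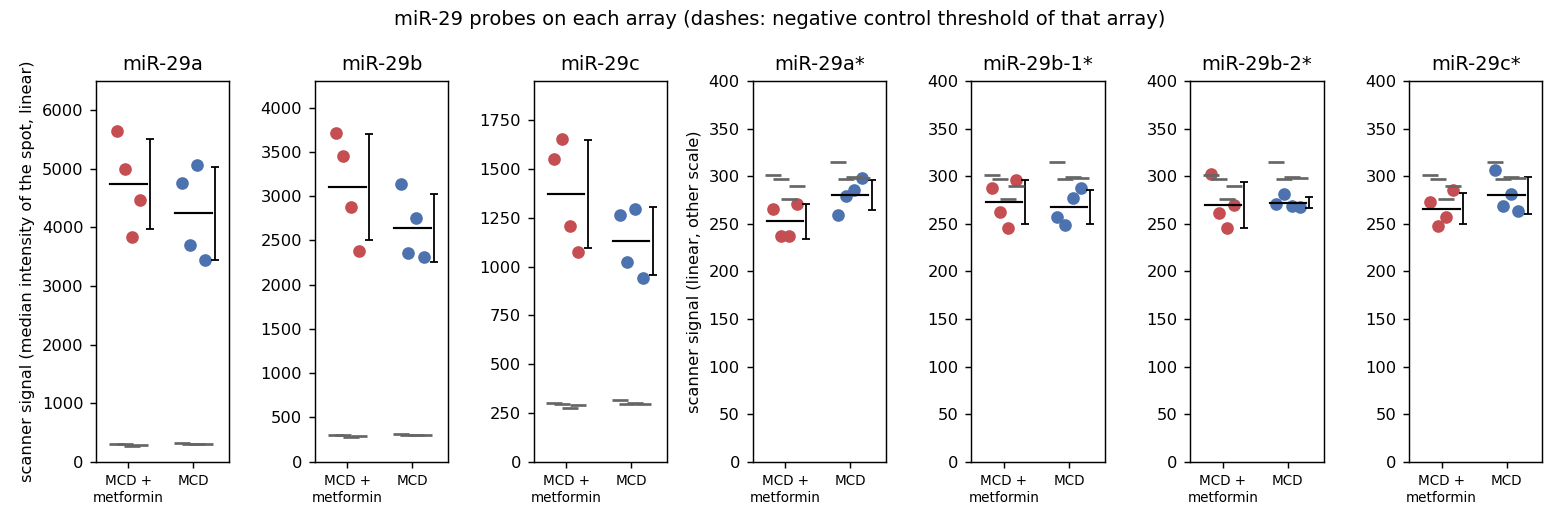
Scanner signal (linear) of the 7 miR-29 probes on each array, with MCD + metformin left and MCD right, replicates 1 to 4 from left to right and a separate scale for each guide. Lines and bars are the mean and SD of 4 arrays and grey dashes the negative control threshold of each array (276 to 315); the guides lie 3.15 to 18.7 times above it and the star arms at or below it on nearly all arrays.

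With limma and no adjustment (p under 0.05), 2 of the 7 miR-29 probes passed as higher with metformin (miR-29b and miR-29c) and 0 as lower, where 6.36% of all 1070 tested probes passed as higher, 3.08% as lower and 9.44% in either direction. After adjustment in limma 0 of the 7 and 0% of the 1070 passed, and the methods' t-test called 0 of the 7 at its unadjusted threshold. Without MCD replicate 4, 9 probes passed the adjusted threshold, none of them from this family. The count of 2 fell to 0 without metformin replicate 1, metformin replicate 2, MCD replicate 2 or MCD replicate 4. It was 3 without MCD replicate 1, where miR-29a* passed as lower beside miR-29b and miR-29c. Without metformin replicate 3 or MCD replicate 3 it stayed at 2, but miR-29a and miR-29c were then the 2 and miR-29b did not pass. In 0 of the 7 probes did the groups fail to overlap, against 4.77% of all tested probes, and 2.8% that did not overlap and were higher. The median log2 fold change was 0.03 over all 1070 probes, but 0.13 over the 158 probes that exceeded the negative controls throughout, of which 114 had a positive value. The guides, at 0.24 to 0.37, belong to these 158.

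**Figure D2:**
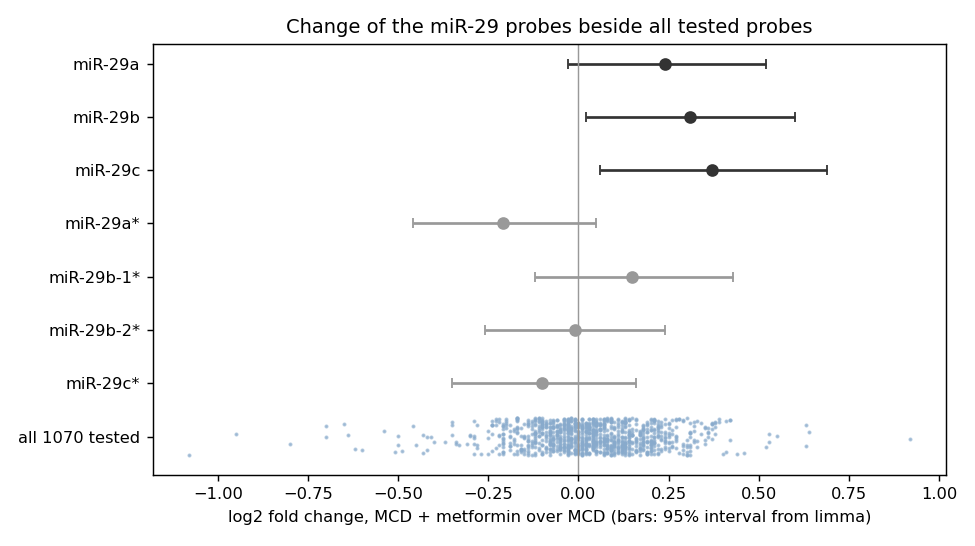
Log2 fold change of MCD + metformin over MCD for the 7 miR-29 probes (points, with the 95% interval from limma as bars) and for all 1070 tested probes (dots, spread vertically for display). The guides lie at 0.24, 0.31 and 0.37 and the star arms between -0.21 and 0.15, within the range of all tested probes (-1.08 to 0.92).

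The 3 guides did not differ detectably from each other in their change. In each array the log2 value of one guide was set against that of another, which removes whatever scales a whole array. The difference of miR-29c minus miR-29a averaged -1.92 ± 0.24 with metformin and -2.05 ± 0.04 without it (SD, n = 4 each), so that the change of miR-29c was 0.13 larger on the log2 scale (95% interval -0.17 to 0.42, adjusted p = 0.571, exact permutation test). The change of miR-29b was 0.07 larger than that of miR-29a (95% interval -0.26 to 0.39) and that of miR-29c 0.06 larger than that of miR-29b (95% interval -0.13 to 0.26), both with an adjusted p of 0.571 from the exact permutation test, two-sided, over the 3 pairs. The intervals leave room for unequal changes of up to 0.42 between members. The difference of miR-29c minus miR-29a depended on single arrays, at 0.05 without metformin replicate 2 and 0.23 without metformin replicate 4 (adjusted p = 0.0857, exact permutation test). When single arrays were left out, that of miR-29b minus miR-29a ranged from -0.0023 without metformin replicate 3 to 0.17 without metformin replicate 4, and that of miR-29c minus miR-29b from 0.01 without metformin replicate 2 to 0.11 without MCD replicate 3. The difference of miR-29c minus miR-29a stayed within -2.10 to -2.01 on the MCD arrays and ranged from -2.23 to -1.68 on the metformin arrays.

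The guides were high or low together on 4 of the 8 arrays. Relative to its mean over the 8 arrays, miR-29c stood at 0.32, 0.51, 0.11 and -0.19 on metformin replicates 1 to 4, against -0.04, -0.29, 0.00 and -0.42 on MCD replicates 1 to 4, in log2 units. miR-29b stood at 0.36, 0.32, 0.17 and -0.23 with metformin, against 0.06, -0.27, -0.12 and -0.29 without it. All 3 guides were above their own mean on metformin replicates 1 and 2, and all 3 were below it on MCD replicates 2 and 4. On the other 4 arrays the guides did not all share a sign. miR-29a stood at 0.06 on metformin replicate 4, where miR-29b and miR-29c were below 0, and at -0.08 on metformin replicate 3, where both were above it. MCD replicates 1 and 3 held all guides within 0.12 of their means, on both sides.

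Over the 8 arrays miR-29b and miR-29c, which share the chromosome 1 cluster, had a Pearson r of 0.94 (permutation p = 0.000372, adjusted over 3 pairs 0.00112) and a Spearman rho of 0.95 (permutation p = 0.00114, adjusted 0.00342). For miR-29a and miR-29c, which lie in different clusters, r was 0.84 (permutation p = 0.0109, adjusted 0.0164) and rho 0.81 (permutation p = 0.0218, adjusted 0.0279). For miR-29a and miR-29b, which share the chromosome 6 cluster, r was 0.75 (permutation p = 0.0381, adjusted 0.0381) and rho 0.79 (permutation p = 0.0279, adjusted 0.0279). Without the 2 arrays farthest from the median of the first-named guide, r was 0.88 for miR-29b and miR-29c, 0.62 for miR-29a and miR-29c and 0.48 for miR-29a and miR-29b, so that the relations of miR-29a rest in part on MCD replicates 2 and 4. No correlation is given within the groups of 4 arrays, and the values over 8 arrays include the difference between the groups. The permutations moved arrays freely between the groups, so the permutation p-values also take in that difference and any brightness shared by the probes of an array. They do not test a link particular to the guides or to a cluster.

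The guides also correlated with other miRNAs of the same arrays, at a median below their r with each other. Some of these miRNAs were closer to miR-29a than both other guides were. The median Pearson r with the other 157 probes that exceeded the negative controls throughout was 0.57 for miR-29a, 0.36 for miR-29b and 0.38 for miR-29c. An r above 0.8 was found for 25, 11 and 15 of the 157 probes with miR-29a, miR-29b and miR-29c in that order. The mean of the 155 such probes other than the guides stood at 0.21, 0.02, -0.12 and 0.10 on metformin replicates 1 to 4, against 0.01, -0.16, 0.12 and -0.17 on MCD replicates 1 to 4. Metformin replicate 1 was thus high, and MCD replicates 2 and 4 were low, for abundant probes in general as well as for the guides. When the arrays were scaled on these 158 probes, a setting chosen after seeing the data, the log2 fold changes were 0.12 for miR-29a, 0.19 for miR-29b and 0.25 for miR-29c, and 0 of the 7 probes passed the unadjusted threshold of limma. That scaling moved the median of all tested probes by more than any other, to -0.09, against 0.03 as reported.

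**Figure D3:**
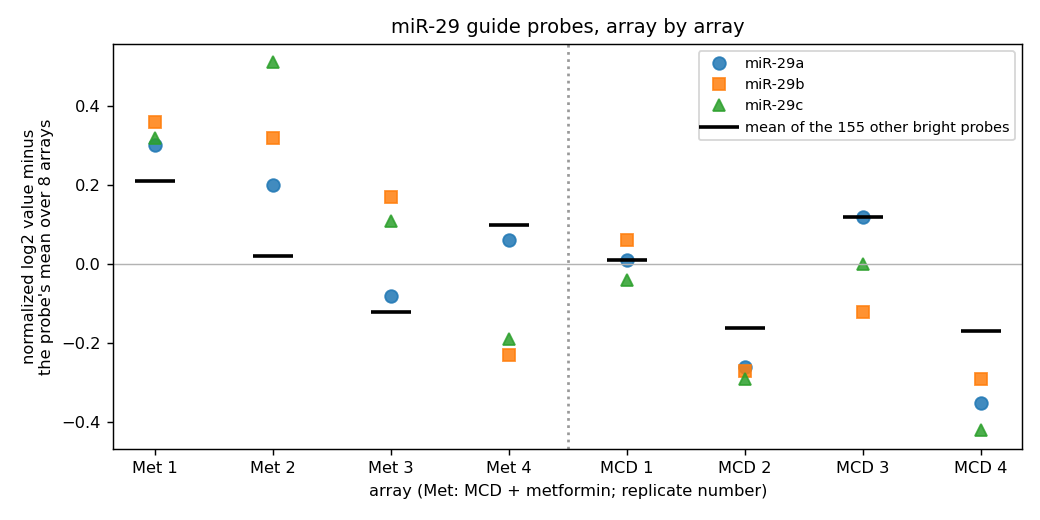
Normalized log2 value of each guide minus its mean over the 8 arrays, for the 4 MCD + metformin arrays (Met, left of the dotted line) and the 4 MCD arrays (right). Black bars are the mean of the 155 other probes that exceeded the negative controls on every array; the guides run from 0.51 on metformin replicate 2 to -0.42 on MCD replicate 4.

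The miRNAs whose pattern was most like that of a guide were sought among the same 157 probes, with Pearson's r over the 8 arrays as a description. For miR-29a they were miR-30e, let-7a and miR-26a, each with an r of 0.95 and with log2 fold changes of 0.17, 0.21 and 0.31. For miR-29b they were miR-29c itself (0.94), miR-101b (0.92) and miR-122*, the star arm of the hepatocyte miRNA (0.92). For miR-29c they were let-7g (0.96), miR-29b (0.94) and let-7f (0.90). These values share the array, its scaling and the division into groups.

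The star arms, which are usually degraded after the guide is loaded, were at the limit of the measurement. Both miR-29a* and miR-29c* exceeded the negative control spots on 0 of the 8 arrays, and miR-29b-1* and miR-29b-2* did so on 1 array each. miR-29a* had signals of 266, 237, 237 and 271 with metformin, against 259, 279, 285 and 298 in MCD-fed mice. Its log2 fold change was -0.21 (standard error 0.12, adjusted p = 0.646 from limma), opposite in sign to that of its guide, and the groups overlapped. The local background around the spot of miR-29a* was also lower with metformin, 131 on average against 151, and its part in the result was not tested.

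miR-29b-1* had signals of 246 to 296 (median 275) with metformin and of 249 to 288 (median 267) in MCD-fed mice, and its log2 fold change was 0.15 ± 0.13 (SE). miR-29b-2* had signals of 246 to 302 with metformin and of 268 to 281 in MCD-fed mice, and its log2 fold change was -0.01 ± 0.12 (SE). For miR-29c* the signals were 248 to 285 with metformin and 263 to 306 in MCD-fed mice, and the log2 fold change was -0.10 (standard error 0.12). None of these 3 passed the unadjusted threshold of limma. How small a change of the star arms could be detected at this brightness was not tested. The offset of the background correction also shrinks the fold change of dim probes.

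Other miRNAs known to act on collagen production or on stellate cells were described for comparison, in one list of 15 antifibrotic and another of 14 profibrotic miRNAs, all of which had a probe that was tested. Among them miR-122, miR-194, miR-101b and miR-34a were singled out by the study on these arrays. It also listed some other members, named below, as changed, so the lists are not independent evidence of a direction. Of the antifibrotic list, 4 passed the unadjusted threshold of limma as higher with metformin and 0 as lower, and its median log2 fold change was 0.12. Of the profibrotic list, 0 passed as higher and 4 as lower, and its median was -0.16. After adjustment over all tested probes 0 members of either list passed from limma, where the median of all probes was 0.03 and 6.36% were higher and 3.08% lower. Of the antifibrotic list 11 probes, and of the profibrotic list 9, exceeded the negative controls on all arrays. Over the 158 probes of the array that did so the median was 0.13, so the antifibrotic median did not lie above that of bright probes.

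The 4 antifibrotic miRNAs past the unadjusted threshold were miR-194, miR-122, miR-335-5p and miR-101b. All 4 had already been listed by the study as higher with metformin on these arrays. miR-335-5p, known to act on tenascin C and migration of stellate cells, had signals of 324 to 338 (median 331) with metformin and of 287 to 318 (median 297) in MCD-fed mice, and its log2 fold change was 0.38 ± 0.12 (SE). The groups did not overlap for miR-335-5p, yet it exceeded the negative control spots on only 5 arrays. Both miR-30a and miR-30c, members of a family that is abundant in hepatocytes, had positive log2 fold changes of 0.21 and 0.18 (standard errors 0.13 and 0.12) that did not pass. miR-133a, which represses collagen in heart muscle, was dim and had -0.14 (standard error 0.12). The guides of miR-29, which were kept out of the list, had log2 fold changes within its range of -0.14 to 0.52.

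On the profibrotic side the 4 were miR-21, the shared probe of miR-199a-3p and miR-199b, miR-199b* and miR-34a. Of these, miR-21 and miR-34a had already been listed by the study as lower with metformin on these arrays. The groups overlapped in all 4, and the exact permutation p was 0.2 for both miR-199 probes, 0.0571 for miR-21 and 0.0857 for miR-34a. miR-21, which is raised in many fibrotic tissues, had signals of 2363 to 3063 (median 2519) with metformin and of 2904 to 6165 (median 4474) in MCD-fed mice, and its log2 fold change was -0.70 ± 0.17 (SE). Over the MCD livers its log2 values had an SD of 0.42, against 0.16 to 0.22 for the miR-29 guides. Over the metformin livers the SD of miR-21 was 0.14, against 0.17 to 0.30 for the guides. miR-214, which is transcribed with miR-199a, stood at -0.35 ± 0.18 (SE), and miR-221 and miR-125b-5p had 0.22 and 0.14 (standard errors 0.22 and 0.16); these 3 did not pass.

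**Figure D4:**
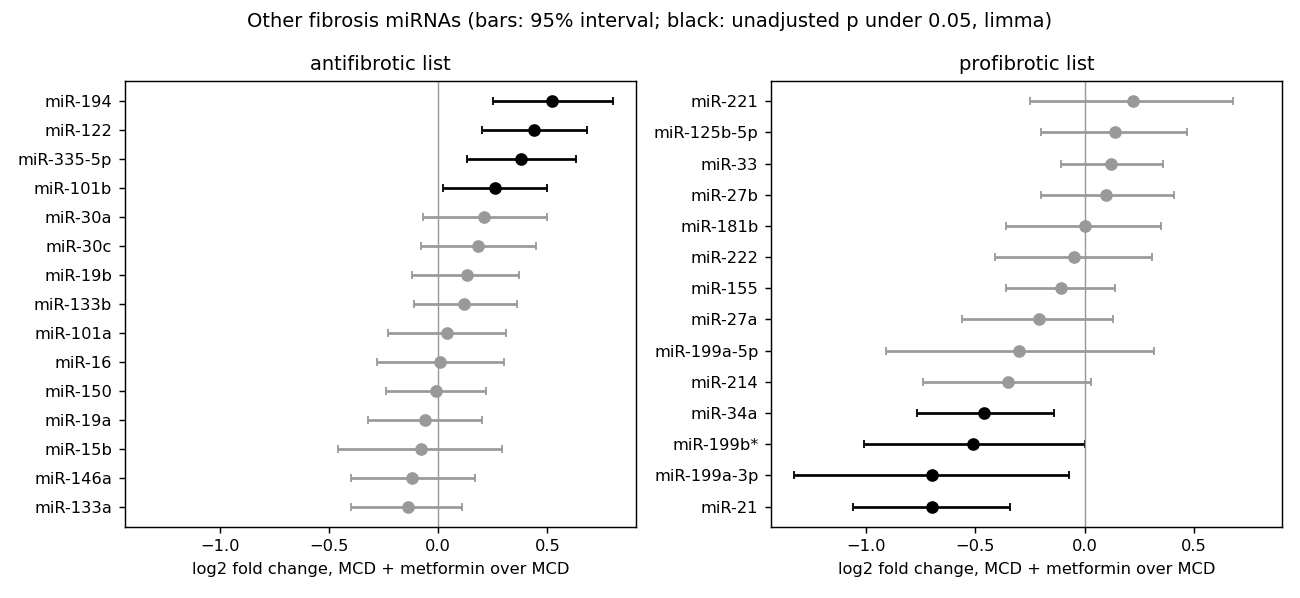
Log2 fold change of MCD + metformin over MCD for the 15 antifibrotic (left) and 14 profibrotic (right) miRNAs, with the 95% interval from limma as bars and an unadjusted p under 0.05 in black. The antifibrotic list runs from -0.14 to 0.52 and the profibrotic list from -0.70 to 0.22, and no member passed after adjustment.

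Markers of cell types found in the liver were described beside the guides. All 6 hepatocyte probes (miR-122, miR-122*, miR-192, miR-192*, miR-194 and miR-148a) had positive log2 fold changes, 5 of them past the unadjusted threshold of limma, and their summed signal was 29442 to 39288 with metformin and 24781 to 28341 in MCD-fed mice. Of the 7 stellate cell and fibroblast probes 6 had negative values and 3 were lower, with summed signals of 5518 to 8649 with metformin and 6462 to 13243 in MCD-fed mice. The 3 were miR-21, the shared probe of miR-199a-3p and miR-199b, and miR-199b*. They were already counted in the profibrotic list, which also holds miR-199a-5p and miR-214. Likewise, miR-122 and miR-194 were counted in the antifibrotic list, so the markers and the fibrosis lists are not separate evidence. Both endothelial probes, miR-126-3p and miR-126-5p, were higher, with summed signals of 4693 to 6191 with metformin and of 4013 to 5277 in MCD-fed mice. The summed signals of the hepatocyte markers did not overlap between the groups, whereas those of the stellate cell and endothelial markers did. Most of the hepatocyte sum was miR-122, at 20702 to 27623 with metformin and 17416 to 19934 in MCD-fed mice. Of the hepatocyte probes, miR-122 and miR-194 did not overlap between the groups, while miR-122*, miR-192, miR-192* and miR-148a did. Among all tested probes 4.77% did not overlap. None of these markers passed after adjustment in limma, and 6.36% of all tested probes passed the unadjusted threshold as higher and 3.08% as lower.

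All 5 leukocyte probes had negative log2 fold changes (median -0.11), and 1, miR-223, passed the unadjusted threshold of limma as lower. The summed leukocyte signal was 1457 to 1822 with metformin and 1715 to 2298 in MCD-fed mice. All 5 biliary probes also had negative values (median -0.43, against -0.35 for the stellate cell and fibroblast probes), and 1, miR-141, passed as lower. The summed biliary signal was 1493 to 2955 with metformin and 1909 to 3898 in MCD-fed mice. The adjusted p from limma was 0.391 for miR-223 and 0.425 for miR-141, and 3.08% of all tested probes passed the unadjusted threshold as lower. The 3 red blood cell probes had positive values and none passed, with summed signals of 1562 to 2579 with metformin and of 1302 to 2412 in MCD-fed mice. The muscle markers miR-133a and miR-206 were near background, at a summed 476 to 513 with metformin and 515 to 561 in MCD-fed mice, ranges that did not overlap either. The part of these cell types in the values of miR-29 was not tested.

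The direction of the guides did not turn under any of the 24 other settings tried for each, but their size depended on the processing. Settings that changed only the probe filter, the test or the replicate block could not move the log2 fold changes, which stayed as reported. The log2 fold change of miR-29c ranged from 0.22 to 0.49, that of miR-29b from 0.11 to 0.43 and that of miR-29a from 0.07 to 0.32. Plain subtraction of the local background gave 0.07 for miR-29a, 0.15 for miR-29b and 0.22 for miR-29c, and quantile normalization gave 0.10, 0.11 and 0.24. Over these settings the adjusted p of the guides from limma or the methods' t-test was never below 0.265.

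**Figure D5:**
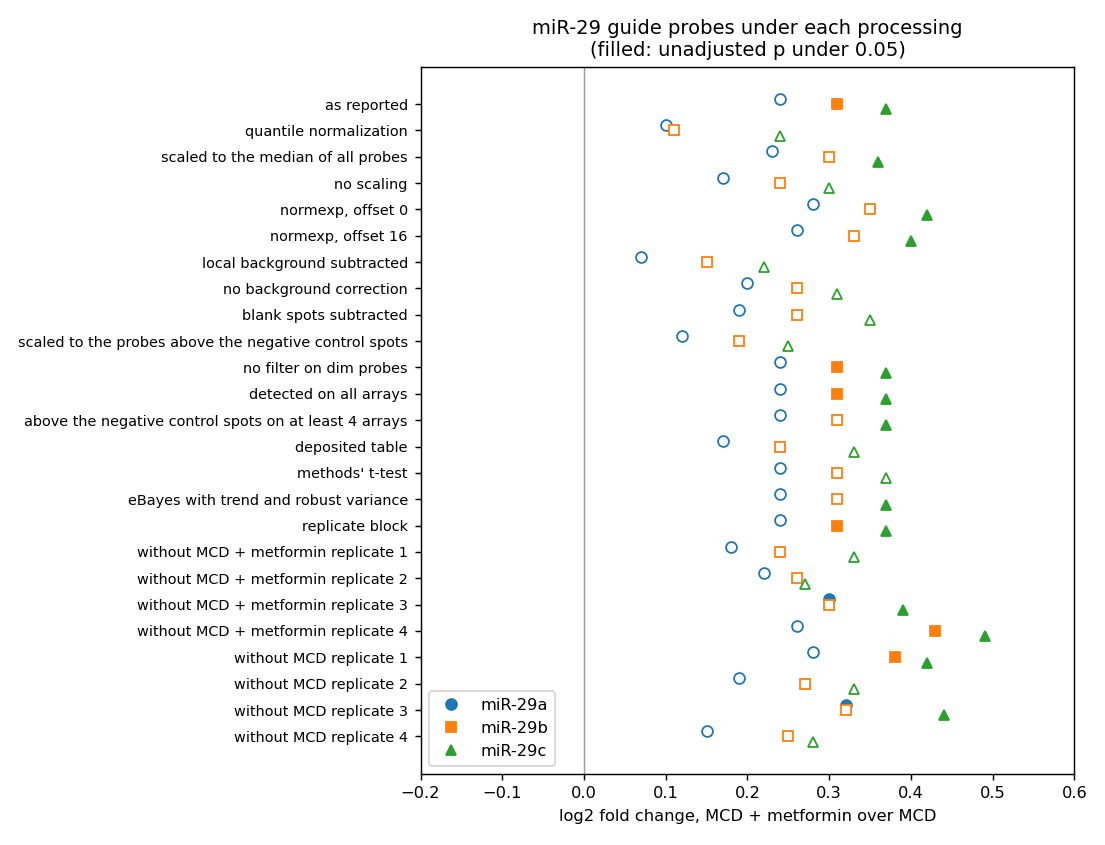
Log2 fold change of MCD + metformin over MCD for miR-29a, miR-29b and miR-29c as reported and under each other processing (rows). Filled symbols have an unadjusted p under 0.05. All symbols lie above 0, from 0.07 for miR-29a to 0.49 for miR-29c, and rows that change only the probe filter, test or block repeat the reported values.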

How the data were processed

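Liver RNA of 4 MCD + metformin and 4 MCD mice was hybridised on mouse miRNA arrays, treated here as 1-colour because the scanner files hold 1 channel. The labels name the dye Hy5, the methods a Hy3/Hy5 kit, and the scanner columns the wavelength of a green laser, so the dye behind the signals is not settled. The deposited scanner files give, per spot, a median intensity and a local background intensity that is not yet subtracted. Their value table is also an intensity: its values follow the scanner signal of their array linearly (largest residual 0.00528), with a median of 45 over the listed probes, linear and not centred per probe, and dim probes are empty. The methods name normalization to 28S RNA; 0 probe names contain 28S, so that step was not repeated.

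Signals were corrected with normexp of limma 3.58.1 (R 4.3.3, offset 50), put on the log2 scale and aligned at the median of the 451 probes detected everywhere; detection meant a signal over mean + 2 SD of the 1818 blanks. Probes detected on 4 or more arrays (1070) entered an unpaired lmFit and eBayes test with Benjamini-Hochberg adjustment, after tests on simulated data. Exact permutation tests were two-sided, and 0.0286 is the smallest p that 4 against 4 arrays allow. Groups come from the sample labels. The number of arrays limits the precision. Members and lists were chosen with earlier results of these data known. Named were all miR-29 probes, up to 4 members per direction of the fibrosis lists by p, the 3 probes most like each guide, and list members given beside a result; miR-30a, miR-30c, miR-133a, miR-214, miR-221 and miR-125b-5p were chosen after their values were seen. No probe was named miR-1, a muscle marker.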

Additional observations from a re-analysis of the deposited data

How the results depend on the processing

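The log2 fold changes of the guides kept their direction and stayed outside the adjusted threshold under all 24 other settings, as did those of miR-29a*, miR-29b-1* and miR-29c* wherever they were tested. Where only the probe filter, the test or the replicate block changed, the direction could not turn. miR-29a* ranged from -0.75 to -0.11. miR-29b-2* turned to 0.02 with local background subtraction and with no background correction, 0.06 with blank spots subtracted and 0.04 in the deposited table, and ranged from -0.09 to 0.05 when single arrays were left out. The count of 2 miR-29 probes past the unadjusted threshold was 1 with no scaling, where it was miR-29a* as lower, and 1, miR-29c, with scaling to all probes, normexp offsets 0 and 16, a filter on the negative control spots, and trend with robust variance. It was 0 with quantile normalization, local background subtraction, no background correction, blank spots subtracted, scaling to the probes above the negative control spots, the deposited table and the methods' t-test, and 0 to 3 when single arrays were left out. The difference between the changes of miR-29b and miR-29a was -0.0023 to 0.17 when single arrays were left out.

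Over all tested probes the 68 higher and 33 lower were 43 and 50 with quantile normalization, 24 and 60 with no scaling, 31 and 52 in the deposited table, and 8 and 40 when scaled to the probes above the negative control spots, the setting chosen after seeing the data. The higher probes numbered 41 with no background correction and 37 with blank spots subtracted. With fewer probes tested, 41 and 15 passed among those detected on all arrays, and 24 and 10 among those exceeding the negative controls on 4 or more arrays. The cause of the other shifts was not tested. With the replicate number as a replicate block the count of miR-29 probes was 2, and 62 and 25 probes passed in all. Same-numbered arrays correlated at 0.02, 0.03, -0.30 and -0.14 in their deviations from the group means, so they share only a number, and 0 of the metformin arrays correlated best with its own number. A block for slide or scan date was not run, since 0 columns name one. Adjusted calls numbered 10 when scaled to the probes above the negative controls and 9 without MCD replicate 4, and included no miR-29 probe.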
